A study of Ovis aries with 8 samples.

Results

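Lysozyme (LYZ) and cathepsin S (CTSS) were followed in the pituitary of fetal sheep after acute hypoxia, as 2 of the 909 gene names on the array. Their probes were those whose name or description on the array gives lysozyme or CTSS, 6 probes of 15008. Of the 6 probes, 2 measure LYZ, 1 measures CTSS and 3 measure other lysozymes, named lysozyme 2a and lysozyme 4b in their descriptions. The CTSS probe is identified by its gene name on the array alone, since its description names an expressed sequence tag. The genes were chosen by their lower array values after hypoxia, a result already known when they were picked, so their differences in that comparison are described here without a test.

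RNA was taken from the whole pituitary, anterior and posterior lobes together, of 8 late-gestation fetal sheep, and each fetus had 1 Agilent one-colour array. In the hypoxia group (n = 4) nitrogen was infused into the trachea of the ewe for 30 min and the fetus was killed 60 min after the onset, and in the normoxia group (n = 4) no nitrogen was given. The ewes carried twins, 1 fetus of a pregnancy was used for an array, and each group held 3 males and 1 female. The hypoxia fetuses were 131, 131, 129 and 132 days of gestation in replicate order and the normoxia fetuses 126, 128, 129 and 123 days. No genotype or strain entered the groups, and both groups had been operated on and carried catheters.

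Lysozyme is a secreted and granule enzyme that cuts the peptidoglycan of bacterial walls, and it is made by neutrophils, monocytes, macrophages and some epithelia. Cathepsin S is a cysteine protease of the lysosomes and endosomes of antigen-presenting cells. It trims the invariant chain from class II molecules of the major histocompatibility complex (MHC), which lets them load peptide. In the pituitary such cells are resident macrophages and dendritic cells, the microglia of the posterior lobe, and leukocytes in the vessels.

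The probe sequences of LYZ and CTSS are shown because the LYZ readings come from probes that overlap, so that they read nearly the same stretch of 1 transcript. Capitals mark the 40 bases that both LYZ probes share, and the CTSS probe, which shares no such stretch, is in lower case throughout. The sequences are those in the deposited array files, 5′ to 3′.
LYZ, probe A_70_P051226: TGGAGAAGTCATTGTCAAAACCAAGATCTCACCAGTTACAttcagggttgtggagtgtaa
LYZ, probe A_70_P051227: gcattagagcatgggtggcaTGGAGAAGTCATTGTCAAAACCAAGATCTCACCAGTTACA
CTSS, probe A_70_P059686: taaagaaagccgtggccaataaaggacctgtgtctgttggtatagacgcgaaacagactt
On the target transcript named in the array design the LYZ probes began at bases 387 and 367. Apart from each other, they shared no run of 30 bases with any probe of the array. The array files give no genome position for these probes.

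Values are normalized spot intensities on the log2 scale, from arrays corrected for background with an added offset of 50 and brought to 1 common distribution. Each probe had 1 spot on an array. The LYZ probes were dim, with raw spot signals of 82.3 to 295 for probe A_70_P051226 and 92.8 to 348 for probe A_70_P051227, but both were well above background on all 8 arrays. CTSS had raw spot signals of 597 to 3167 and was also well above background on all 8 arrays. An added offset shrinks the difference of a dim probe, so the LYZ differences below depend on it.

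LYZ was lower on every hypoxia array than on every normoxia array with both probes. Probe A_70_P051226 read 7.12, 6.73, 6.65 and 6.60 on hypoxia replicates 1 to 4 and 7.93, 7.37, 7.32 and 7.89 on normoxia replicates 1 to 4 (log2). The groups were parted by 0.20 log2 units, and the highest hypoxia value came from replicate 1, a female. The mean was 6.77 ± 0.24 after hypoxia against 7.63 ± 0.33 (SD, 4 arrays each). The difference was -0.85 log2 units (SE 0.17), or 1.81-fold.

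The overlapping probe A_70_P051227 read 7.27, 6.87, 6.81 and 6.81 on the hypoxia arrays and 8.02, 8.46, 7.31 and 7.99 on the normoxia arrays, in the same order. Here the groups were parted by 0.05 log2 units, between the females, hypoxia replicate 1 and normoxia replicate 3. The mean was 6.94 ± 0.22 after hypoxia against 7.95 ± 0.47 (SD, 4 arrays each). The difference was -1.01 log2 units (SE 0.22), or 2.01-fold.

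The LYZ probes moved in parallel except on 1 array. The log2 value of A_70_P051227 minus that of A_70_P051226 was 1.09 on normoxia replicate 2 and between -0.01 and 0.21 on the other arrays. Probe A_70_P051227 was therefore highest on normoxia replicate 2, where its overlapping partner was among the lower normoxia values. Without normoxia replicate 2 the differences between the groups were -0.94 for A_70_P051226 and -0.84 for A_70_P051227.

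CTSS was lower on every hypoxia array too. It read 10.20, 9.97, 9.78 and 9.69 on hypoxia replicates 1 to 4 and 10.59, 10.35, 10.39 and 11.46 on normoxia replicates 1 to 4. The groups were parted by 0.15 log2 units, and normoxia replicate 4, the youngest fetus, stood above the other normoxia arrays. The mean was 9.91 ± 0.22 after hypoxia against 10.70 ± 0.52 (SD, 4 arrays each). The difference was -0.79 log2 units (SE 0.24), or 1.73-fold. Without normoxia replicate 4 the difference was -0.53.

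**Figure D1:**
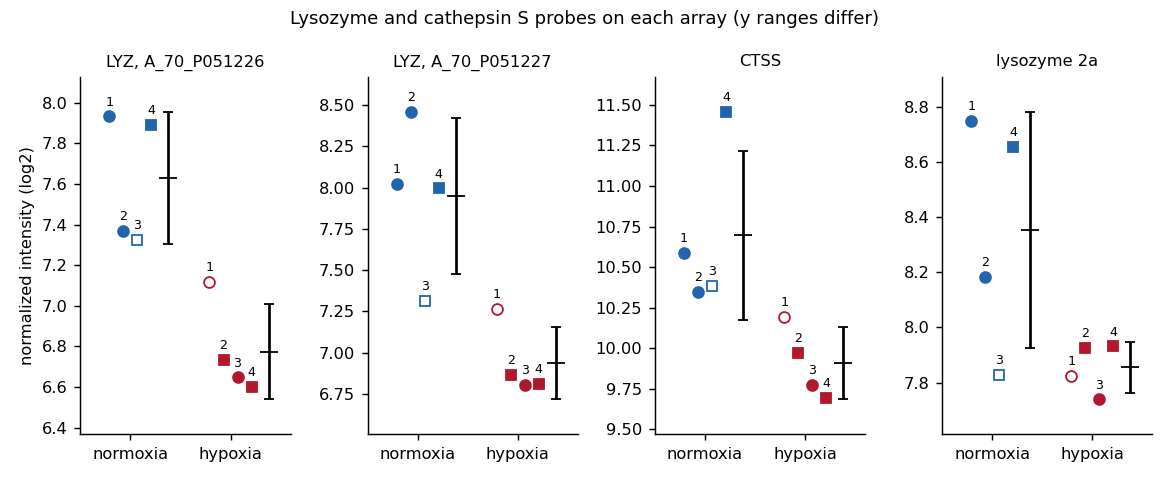
Normalized intensity (log2) of both LYZ probes, CTSS and lysozyme 2a on each array, with replicate numbers beside the points, circles for slide 1, squares for slide 2 and open symbols for females. Black marks are means with SD (n = 4); the y ranges differ between panels. The groups do not overlap for LYZ and CTSS and overlap for lysozyme 2a.

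The other lysozymes gave less. Lysozyme 2a (probe A_70_P016801) read 7.82, 7.93, 7.74 and 7.93 on the hypoxia arrays and 8.75, 8.18, 7.83 and 8.65 on the normoxia arrays. Normoxia replicate 3 lay within the hypoxia values, so the groups overlapped. The difference was -0.50 log2 units (SE 0.19), with means of 7.86 ± 0.09 and 8.35 ± 0.43 (SD, n = 4 each). Both lysozyme 4b probes, A_70_P016809 and A_70_P016808, were not well above background on any of the 8 arrays and did not pass the brightness filter.

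Of the 6 probes, 4 passed the filter and 3 of these had every hypoxia array below every normoxia array, where 5.92% of the 13011 retained probes with a value on all arrays had this order. Since that comparison chose the genes, nothing is read from the count. Across the 13033 retained probes limma called 18.4%, with 11.0% lower and 7.43% higher after hypoxia, where its unadjusted p was at most 0.05, and 3 probes, all lower, had an adjusted p under 0.05. In RNA of a whole gland, fewer cells of a type and less RNA per cell cannot be told apart.

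Several measures moved with the groups. Hypoxia arrays were dimmer, with median spot signals of 227 to 291 against 305 to 377 (p = 0.0286 by a two-sided exact permutation test, as low as 4 arrays against 4 can give). The hypoxia fetuses were older, at 130.75 ± 1.26 days against 126.5 ± 2.65 days (SD, 4 fetuses each; p = 0.0571 by the same exact test). With array brightness as a covariate the differences were -0.40 and -1.06 log2 units for LYZ probes A_70_P051226 and A_70_P051227 and -0.45 for CTSS. Since brightness did not overlap between the groups, that fit cannot tell brightness and condition apart.

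The slope of CTSS on gestational age passed the unadjusted test only. In a limma fit with condition and age, CTSS fell by 0.15 log2 units per day of gestation (SE 0.05, limma unadjusted p = 0.0109, adjusted p = 0.963), where 5.09% of the 13033 probes had an unadjusted p of 0.05 or below and 0 passed adjustment. The youngest fetus, normoxia replicate 4 at 123 days, had the highest CTSS value, 11.46, and no slope without it is given here. Among hypoxia fetuses CTSS read 9.78 at 129 days, 10.20 and 9.97 at 131 and 9.69 at 132. The slopes were -0.08 per day for LYZ probe A_70_P051226 (SE 0.04, limma unadjusted p = 0.0827) and -0.03 for A_70_P051227 (SE 0.06, limma unadjusted p = 0.603). For lysozyme 2a the slope was -0.10 per day (SE 0.04, limma unadjusted p = 0.0537).

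With age in the model, the difference between hypoxia and normoxia was -0.15 log2 units for CTSS (SE 0.26), -0.50 (SE 0.23) and -0.86 (SE 0.35) for LYZ probes A_70_P051226 and A_70_P051227, and -0.08 for lysozyme 2a (SE 0.24). The values of CTSS and lysozyme 2a lay within their standard error of 0. Each group had 1 fetus of 129 days, hypoxia replicate 3 and normoxia replicate 3. At that age CTSS read 9.78 after hypoxia and 10.39 in normoxia. LYZ read 6.65 and 7.32 with probe A_70_P051226 and 6.81 and 7.31 with probe A_70_P051227. These are single arrays, and the part of gestational age in the difference between the groups was not tested beyond these fits.

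**Figure D2:**
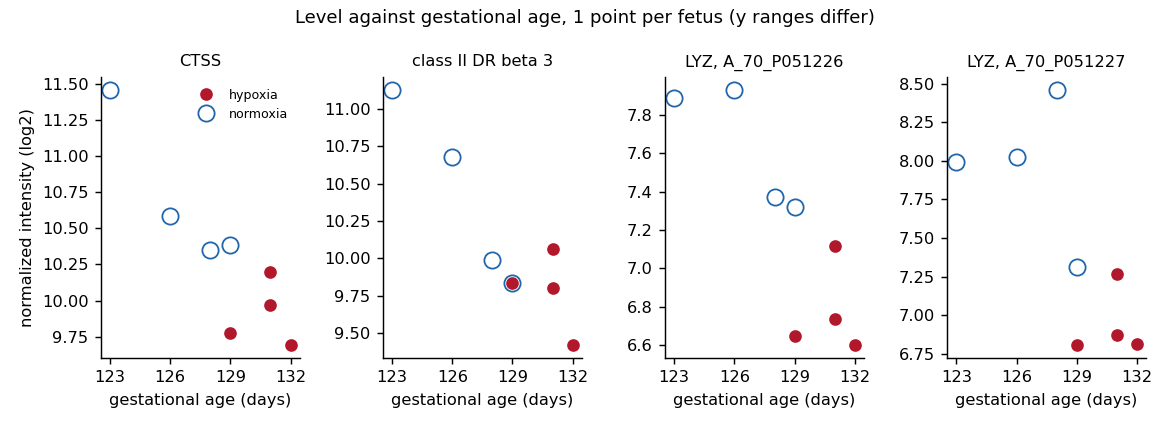
Normalized intensity (log2) against gestational age in days for CTSS, the class II DR beta 3 probe and both LYZ probes, 1 point per fetus, with filled points for hypoxia and open points for normoxia. CTSS and DR beta 3 are highest in the youngest normoxia fetus, of 123 days, and only at 129 days do the groups hold fetuses of the same age.

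The slides each carried 2 arrays of each group. Within slide 1 the differences were -0.77 and -1.20 log2 units for LYZ probes A_70_P051226 and A_70_P051227 and -0.48 for CTSS, and within slide 2 they were -0.94, -0.81 and -1.09. The hypoxia effect on slide 2 minus that on slide 1 was -0.61 for CTSS (SE 0.46, limma unadjusted p = 0.224), -0.17 for LYZ probe A_70_P051226 (limma unadjusted p = 0.654) and 0.39 for A_70_P051227 (limma unadjusted p = 0.319), so 0 of the 3 probes passed the unadjusted test, as 7.47% of all probes did. The slides themselves differed by 0.15 log2 units for CTSS (limma unadjusted p = 0.553), by -0.13 for A_70_P051226 (limma unadjusted p = 0.481) and by -0.39 for A_70_P051227 (limma unadjusted p = 0.0677). No LYZ or CTSS probe was called for the slide, where 5.19% of probes were. Without both arrays of females, left out after the values were seen, the differences were -1.07, -1.33 and -0.99.

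The size of the LYZ difference depended on how the signal was processed, and that of CTSS varied less. With no background correction the differences were -0.66 and -0.79 log2 units for LYZ and -0.76 for CTSS, and with normexp but no offset they were -1.32, -1.43 and -0.82. With the scanner's processed signal scaled to the 75th percentile, which changes both signal and normalization, they were -1.76, -1.74 and -0.87, and in the deposited log2 values they were -1.29, -1.43 and -0.83. The groups stayed apart for both LYZ probes and CTSS under each of the 8 alternatives of signal, background, normalization and filter. These alternatives reuse the arrays whose values chose the genes, and a change of filter leaves those values as they were, so this is no independent check.

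**Figure D3:**
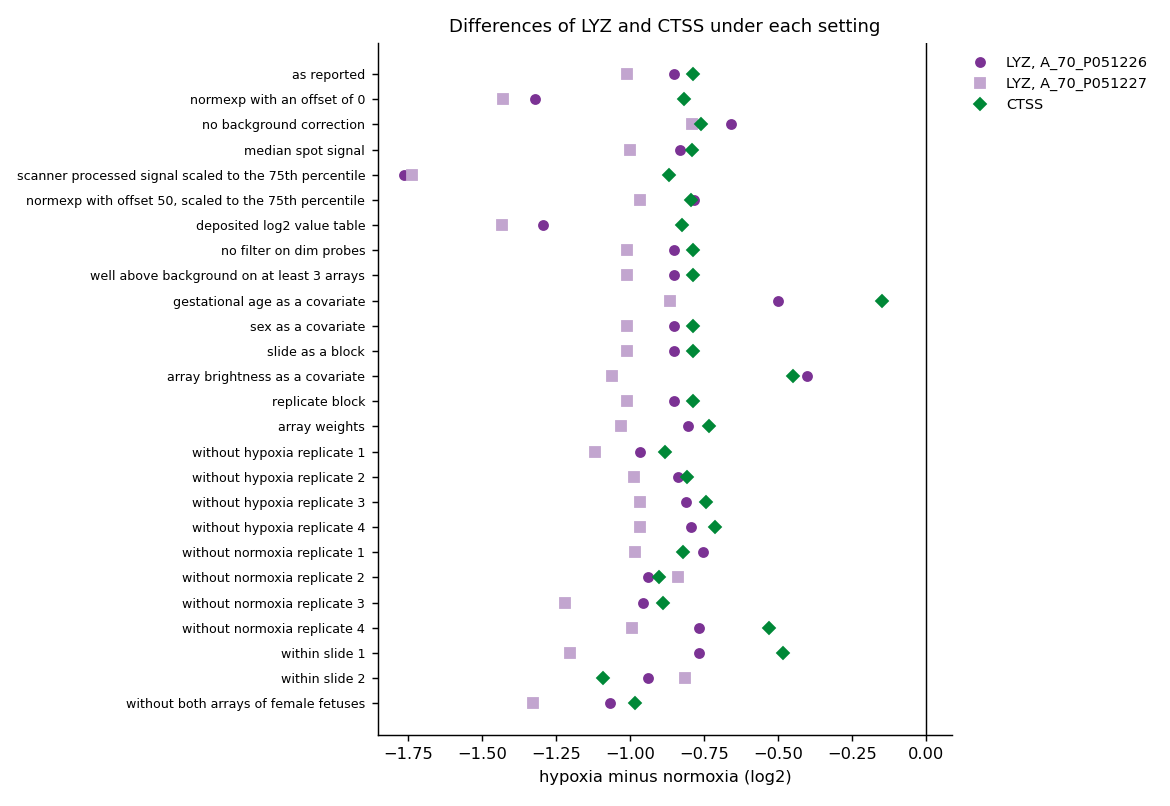
Difference between hypoxia and normoxia (log2) of both LYZ probes and CTSS, as reported and under each alternative, 1 line of points per setting. All values are below 0, and CTSS is closest to 0, at -0.15, with gestational age as a covariate.

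MHC class II molecules present the peptides that cathepsin S helps to load. Of 5 probes described as MHC class II, 4 passed the brightness filter, all 4 were lower after hypoxia on average, and 2 were called, where 11.0% of all probes were called lower. The number of these probes called was 0 without normoxia replicate 1 or 4 or without hypoxia replicate 2, 3 or 4, and 4 without normoxia replicate 3. It was also 0 with slide or replicate number as a block (limma unadjusted p = 0.0570 for A_70_P016761 and 0.0572 for A_70_P024151 with slide), with sex, age or brightness as a covariate and with array weights. The DR beta 3 probe (A_70_P016761) read 10.06, 9.80, 9.84 and 9.42 on hypoxia replicates 1 to 4 and 10.68, 9.99, 9.83 and 11.13 on normoxia replicates 1 to 4. Normoxia replicates 2 and 3 lay within the hypoxia values, and the difference was -0.63 log2 units (SE 0.27, limma unadjusted p = 0.0453, adjusted p = 0.259). Without 1 array this difference was -0.82 to -0.39.

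A probe for a DRB1 allele labelled C1 (A_70_P024151) fell by 0.58 log2 units (SE 0.25, limma unadjusted p = 0.0443, adjusted p = 0.256). The probe for allele G1 (A_70_P024146) differed by -0.46 (limma unadjusted p = 0.0904) and that for DQB1 (A_70_P017031) by -0.86 (limma unadjusted p = 0.239). Without 1 array the differences were -0.76 to -0.33 for C1, -0.60 to -0.21 for G1 and -1.43 to -0.37 for DQB1. DQB1 ranged from 10.38 to 12.71 in hypoxia and from 10.60 to 13.79 in normoxia, a wide spread within each group. Class II genes are highly polymorphic, and whether an animal's allele matches a probe was not tested. The DY alpha probe was not well above background on any array.

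A further 6 probes name a class II chain in other words and were added after the descriptions were read. DR alpha (A_70_P026951) fell by 0.62 log2 units (SE 0.22, limma unadjusted p = 0.0196, adjusted p = 0.183), and a further DRB1 probe (A_70_P016821) fell by 0.62 (SE 0.27, limma unadjusted p = 0.0476, adjusted p = 0.266). A DQA1 probe (A_70_P016751) fell by 1.68 (SE 0.64, limma unadjusted p = 0.0261, adjusted p = 0.206), with hypoxia arrays from 5.90 to 9.42. It was well above background on 3 of the 4 hypoxia arrays but not on replicate 4, and without that array the difference was -0.96 (SE 0.30, limma unadjusted p = 0.0125). The other DQA1 probe (A_70_P053731) differed by -0.00 (limma unadjusted p = 0.990). The DQA2 probes differed by -0.59 (limma unadjusted p = 0.138) and -0.10 (limma unadjusted p = 0.643). Of these 6 probes 3 were called, and the number was 0 with gestational age or array brightness as a covariate and 0 to 4 without 1 array, lowest without normoxia replicate 1. With age the differences were 0.30 for DRB1, 0.10 for DR alpha and 0.57 for DQA2 probe A_70_P016707. They were 0.07 and -0.42 for DQA1 probes A_70_P053731 and A_70_P016751 and -0.12 for DQA2 probe A_70_P026541.

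With gestational age in the model, the 4 differences were 0.22 (SE 0.19) for A_70_P024151, 0.23 (SE 0.22) for A_70_P016761, 0.21 (SE 0.26) for A_70_P024146 and 0.93 (SE 0.78) for A_70_P017031, and limma's unadjusted p was 0.265 to 0.443. In the same order, the slopes of these probes on age were -0.19, -0.20, -0.16 and -0.42 per day. Limma's unadjusted p was 4.76e-04, 8.34e-04, 0.00927 and 0.0160, with an adjusted p of 0.868 to 0.963. The slopes of the 6 added probes ran from -0.30 to 0.005, with the smallest p for DRB1 (-0.22, limma unadjusted p = 5.57e-05, adjusted p = 0.725). The 4 probes described as MHC class II and CTSS were highest on normoxia replicate 4.

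CD14, the lipopolysaccharide co-receptor of monocytes and macrophages, differed little between the groups. Probe A_70_P030287 read 8.77, 9.49, 8.98 and 9.56 on the hypoxia arrays and 9.41, 8.84, 9.34 and 9.06 on the normoxia arrays. The groups overlapped widely, with a difference of 0.04 log2 units (SE 0.20, limma unadjusted p = 0.857). Probe A_70_P030286 differed by 0.01 (SE 0.19, limma unadjusted p = 0.966). No probe of the array carries the gene name CD68, so CD68 could not be read.

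Over a list of 41 macrophage and microglia genes, 16 were measured, 1 was called higher and 2 were called lower, near the 7.43% and 11.0% of all probes. The median difference was 0.03 log2 units, beside a median of -0.00 over all retained probes. Averaged over the 16 genes, hypoxia arrays read 8.07 to 8.21 and normoxia arrays 8.15 to 8.23. CYBA, a subunit of the phagocyte oxidase, rose by 0.46 (SE 0.10, limma unadjusted p = 8.73e-04, adjusted p = 0.0851). FCER1G, the signaling chain of Fc receptors, fell by 0.56 (SE 0.20, limma unadjusted p = 0.0197, adjusted p = 0.183).

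CD86, a costimulatory ligand on antigen-presenting cells, fell by 0.49 (SE 0.17, limma unadjusted p = 0.0197, adjusted p = 0.183). FCGR1A, a high-affinity receptor for immunoglobulin G, differed by -0.20 (limma unadjusted p = 0.163) and the pattern receptor TLR2 by 0.12 (limma unadjusted p = 0.300).

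The other lysosomal proteases measured were not called. Of 16 lysosomal cathepsins and related proteases other than CTSS, 5 were measured, 0 were called by limma at an unadjusted p of 0.05 or below, and the median difference was -0.04 log2 units. CTSF differed by 0.21 (SE 0.09, limma unadjusted p = 0.0524) and the aspartic protease CTSD by 0.19 (SE 0.10, limma unadjusted p = 0.0893). LGMN differed by -0.11, CTSL2 by -0.10 and CTSB by -0.04. Of 18 other lysosome genes, 3 were measured and 0 called, with a median of 0.12, from PSAP at 0.16 and LIPA at 0.12 to HEXA at 0.11.

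In MHC class I presentation, 2 of 8 genes were measured. PSMB8, a subunit of the immunoproteasome, fell by 0.30 (SE 0.13, limma unadjusted p = 0.0408). B2M, the light chain of class I molecules, differed by -0.44 (SE 0.23, limma unadjusted p = 0.0828), with its highest value, 16.85, on normoxia replicate 4.

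Lysozyme is also a neutrophil granule protein. Of 23 other granule genes, 5 were measured, 0 were called higher and 2 lower, where 7.43% and 11.0% of all probes were. The median difference was -0.61 log2 units, -0.98 to -0.22 without 1 array and -1.81 with the scanner's processed signal scaled to the 75th percentile. The cathelicidins BAC5 and CATHL3 differed by -2.21 (SE 0.88, limma unadjusted p = 0.0328) and -1.99 (SE 0.81, limma unadjusted p = 0.0353). For another cathelicidin, CATHL5, the paper reported a significant fall on the array and a qPCR change in the same direction that was not significant. CATHL3 read 9.84, 6.31, 8.15 and 6.15 on hypoxia replicates 1 to 4. This is close to the pattern of BAC5 below, so the 2 calls are not separate evidence. BAC5 read 10.36, 6.62, 8.23 and 6.46 on hypoxia replicates 1 to 4 and 9.65, 11.89, 9.06 and 9.90 on normoxia replicates 1 to 4, so that its groups overlapped through hypoxia replicate 1. That array also held the highest hypoxia value of LYZ and CTSS. Normoxia replicate 2, the highest for BAC5, was the highest for LYZ probe A_70_P051227 as well. There the overlapping LYZ probe A_70_P051226 read 7.37, among its lower normoxia values, and CTSS read 10.35, its lowest normoxia value.

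The iron-binding granule protein LTF differed by -0.41 (limma unadjusted p = 0.0590), the cathelicidin SC5 by -0.61 (limma unadjusted p = 0.259), and MMP9 by -0.02. MMP9 was dim, at 6.11 to 6.38, near the brightness filter, so its value does not show a lack of change. Averaged over the 5 granule genes, hypoxia arrays read 6.58 to 8.48 and normoxia arrays 7.72 to 9.39. The part of neutrophils in the LYZ difference was not tested.

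**Figure D4:**
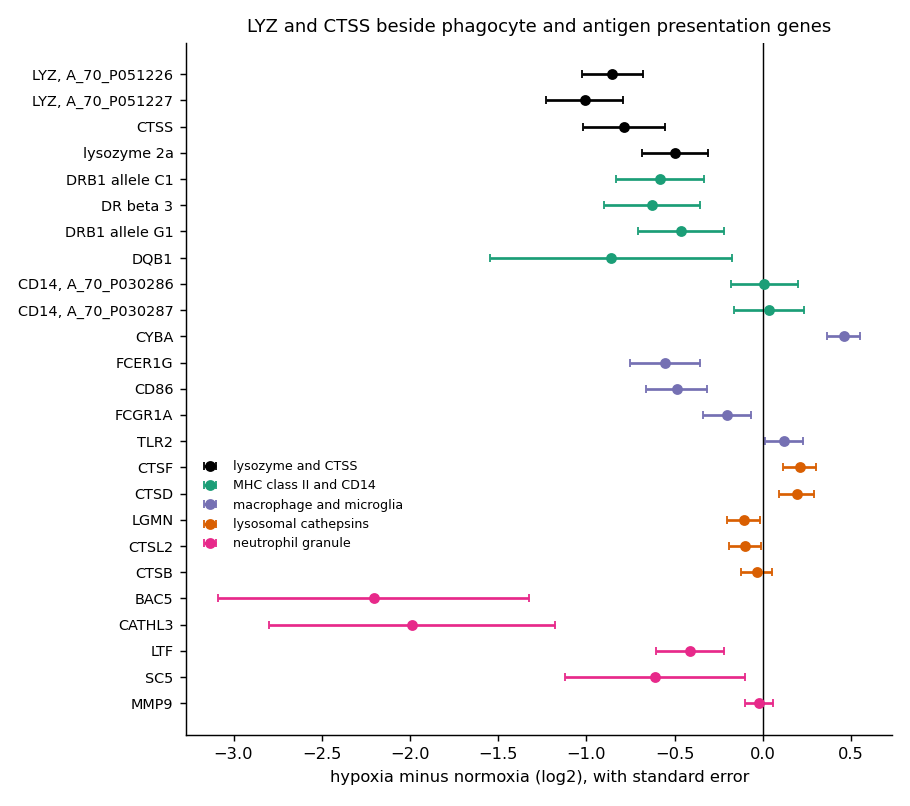
Difference between hypoxia and normoxia (log2) with its standard error (n = 4 in each group) for lysozyme and CTSS probes beside class II, CD14, macrophage, lysosomal cathepsin and neutrophil granule genes. Both LYZ probes lie at -0.85 and -1.01 and CTSS at -0.79, while the CD14 probes and the lysosomal cathepsins lie between -0.11 and 0.21.

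Markers of other cells were few. Of 28 lymphocyte genes 7 were measured and 0 called by limma at an unadjusted p of 0.05 or below, with a median of 0.04 log2 units. CD3E, a chain of the T-cell receptor complex, differed by -0.46 (limma unadjusted p = 0.101) and CD3D by 0.01. Of 18 red cell genes 2 were measured and 0 called, with a median of 0.65. AHSP, a chaperone of alpha globin, differed by 0.69 (limma unadjusted p = 0.135) and HBB, beta globin, by 0.62 (limma unadjusted p = 0.253), and HBB ranged from 12.09 to 14.99 over the arrays. Of 15 endothelial genes 5 were measured and 0 called, with a median of 0.17. The anterior lobe hormone genes GH, PRL, POMC and CGA, which mark the labelled tissue, were all measured and differed by 0.01, -0.03, 0.02 and 0.07 after quantile normalization. GH, PRL and POMC read 18.71 to 19.07 and CGA 17.55 to 17.90. At such bright levels this normalization leaves arrays little room to differ, so these small differences do not show stable hormone gene levels.

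Of 19 anterior lobe genes 9 were measured, with a median of 0.01, or 0.26 with each array scaled to its 75th percentile, and 1 was called, FSHB, which rose by 0.46 (limma unadjusted p = 0.0382). Of 13 genes of the posterior lobe and glia 4 were measured, with a median of 0.16, and 1 was called, OXT, which rose by 0.39 (limma unadjusted p = 0.0127). Of 16 genes listed as other lysozymes or lysozyme-like and 6 cathepsin inhibitors, 0 were measured.

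Among products of activated myeloid cells, CXCL8 and TNF were high on hypoxia replicate 3, and IL10 and IL18, at 6.69 and 6.72 there, lay within the other hypoxia arrays. Of 20 such cytokine, chemokine and related genes 11 were measured, 1 was called higher, near the 7.43% of all probes, and 0 lower, with a median of 0.09. NFKBIA, an inhibitor of NF-kappaB that this factor itself induces, rose by 1.35 (SE 0.38, limma unadjusted p = 0.00579). It too was highest on hypoxia replicate 3, reading 12.07, 12.48, 14.10 and 12.96 on hypoxia replicates 1 to 4 and 11.25 to 11.86 in normoxia. CXCL8, a neutrophil attractant, read 6.92, 7.80, 11.80 and 7.70 on the hypoxia arrays, while the normoxia arrays lay between 7.24 and 7.66.

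TNF read 10.66 on hypoxia replicate 3 and 6.89 to 7.04 on the other hypoxia arrays. On that array LYZ read 6.65 and 6.81 and CTSS 9.78, near the other hypoxia arrays. Without hypoxia replicate 3 their differences were -0.81, -0.97 and -0.74.

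Within the groups, the DRB1 and DR beta 3 probes were close to CTSS in pattern. Deviations from the group means over the 8 arrays gave a Pearson r with CTSS of 0.97 for DRB1 allele G1, the eighth highest of 13010 other probes, 0.93 for allele C1, 0.89 for DR beta 3 and 0.56 for DQB1. Against CD14 r was -0.28 and -0.26. These r values are descriptions over 8 arrays that share normalization, age and brightness, and normoxia replicate 4 carries much of them. Without it r was 0.89, 0.75, 0.78 and 0.10 for the 4 class II probes. Of the added class II probes over all 8 arrays, DRB1 had an r with CTSS of 0.87 and DR alpha 0.86. The DQA1 probes had 0.30 and 0.31 and the DQA2 probes 0.82 and 0.29.

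LYZ probe A_70_P051226 had an r of 0.73 with CTSS and 0.40 with its overlapping partner A_70_P051227, which had an r of 0.20 with CTSS. Without normoxia replicate 2 the r between the LYZ probes was 0.99 and that of A_70_P051227 with CTSS was 0.68.

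Among named genes, those most like CTSS in these deviations were MX1 (r = 0.95), ALB (0.93), MX2 (0.92), PGFS (0.91) and TLR3 (0.90). MX1 and MX2 are antiviral GTPases induced by interferon, and TLR3 senses double-stranded RNA. Without normoxia replicate 4 the r values were 0.72, 0.58, 0.61, 0.64 and 0.49. For LYZ, by its brighter probe A_70_P051227, they were the mast cell tryptase TPSB2 (0.95), PURA (0.93), ddit3 (0.93), PRKACA (0.91) and CREM (0.90). Without normoxia replicate 2 these were 0.91, 0.89, 0.93, 0.89 and 0.86. The dimmer LYZ probe A_70_P051226 had other genes closest, PPIA (0.95), LOC443344 (0.94), CAPN3 (0.92), ITGAV (0.90) and TLR6 (0.89).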

How the data were processed

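Pituitary RNA of 8 fetal sheep was measured on Agilent arrays. The authors deposited spot intensity values from Agilent Feature Extraction 10.1.1.1, not normalized, and a table of log2 values that they had background-corrected, quantile-normalized and filtered in limma. Mean spot signals were corrected by normexp with an offset of 50 in limma 3.58.1 (R 4.3.3), arrays were quantile normalized, and control and outlier spots were left out. A probe was retained if, on 3 or more arrays, it reached 1.1 times the 95th percentile of 77 negative control spots; the offset and this statistic are choices made here. The groups were compared with limma's lmFit and eBayes. Calls were made where the unadjusted p was at most 0.05, with Benjamini-Hochberg adjustment over the 13033 retained probes. Slide, gestational age and sex were fitted beside condition, and the steps were tested on simulated data.

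The genes and lists were chosen with earlier results of these data known. Every LYZ, CTSS, MHC class II and CD14 probe is named, with at most the 5 members of smallest p from each list and the 5 named genes most correlated with CTSS and the brighter LYZ probe. CD3D, GH, POMC, PRL and the genes closest to the dimmer LYZ probe are named outside that rule. A gene of a list is read from its brightest probe. One label names the hypothalamus as the RNA source, and the arrays are treated as pituitary. The fetuses are separate animals. The number of arrays limits the precision. Alternatives changed the background, signal, normalization, filter, covariates and arrays.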

Additional observations from a re-analysis of the deposited data

Results flagged for a closer look

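LYZ probe A_70_P051227 stood apart on hypoxia replicate 1, at 7.27 on the log2 scale, where the other hypoxia arrays read 6.81 to 6.87 (gap over range 0.866). Of 32 groups of 4 arrays examined in this way, 1 had an outlying array, and chance flags about 1 in 20. This is the array of the female hypoxia fetus. Without both arrays of females the difference of this probe was -1.33 log2 units. Fitted beside condition, female minus male was -0.20 (SE 0.26) for this probe, 0.02 (SE 0.21) for A_70_P051226 and -0.01 (SE 0.29) for CTSS.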

How the results depend on the processing

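The differences of both LYZ probes, CTSS and lysozyme 2a stayed below 0 under all 25 alternatives, which reuse the arrays whose values chose the genes. Without 1 array they ranged from -0.97 to -0.75 for LYZ probe A_70_P051226, from -1.22 to -0.84 for A_70_P051227, from -0.90 to -0.53 for CTSS and from -0.67 to -0.37 for lysozyme 2a. They moved by more than the spread between arrays for LYZ with the scanner's processed signal scaled to the 75th percentile (-1.76 and -1.74), the deposited values (-1.29 and -1.43) and normexp at offset 0 (-1.32 and -1.43). The same held with gestational age as a covariate for LYZ probe A_70_P051226 (-0.50), CTSS (-0.15) and lysozyme 2a (-0.084), and with array brightness for A_70_P051226 (-0.40). Over all probes, 371 were called higher and 448 lower with age, 264 and 289 with brightness and 384 and 414 within slide 1, against 969 and 1428, and without 1 array 650 to 1194 and 970 to 1660. Scaled to the 75th percentile, 1232 probes were called for age, against 663.

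Among the 4 probes described as MHC class II and the 2 CD14 probes, the number called, 2, was 0 without background correction, with sex, age or brightness as a covariate, with slide as a block, with array weights and within slide 2. It was 1 with the scanner's processed signal scaled to the 75th percentile and within slide 1, and 0 to 4 without 1 array. With age the class II differences were 0.22 (A_70_P024151), 0.23 (A_70_P016761), 0.21 (A_70_P024146) and 0.93 (A_70_P017031), and with brightness that of A_70_P016761 was 0.038. The CD14 differences, near 0, changed sign with age (-0.17 for A_70_P030286 and -0.13 for A_70_P030287), with brightness (-0.22 and -0.19), within slide 1 (-0.13 and -0.25) and, for A_70_P030286, scaled to the 75th percentile (-3.0e-04). Without 1 array they were -0.16 to 0.10 and -0.083 to 0.18. The cause was not tested.

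With the replicate number as a block, 0 of these 6 probes were called, 2 of the 6 added class II probes were, against 3, and the differences of LYZ and CTSS stayed at -0.85, -1.01 and -0.79. Arrays of the same number correlated in their deviations at -0.05, 0.02, 0.12 and -0.10. Only for hypoxia replicate 3 was the normoxia array of the same number the closest. Both arrays of replicate 1 were on slide 1, both of replicate 4 on slide 2, and both fetuses of replicate 3 were of 129 days. The offset added in background correction, a choice made here and not stated in the paper, limits what dim probes such as LYZ can show.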
